A study of Homo sapiens with 25 samples.

Results

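The genes examined were 10 enzymes that build, lengthen, desaturate and activate fatty acids: ACLY, ACACA, FASN, SCD, ELOVL5, ELOVL6, FADS1, FADS2, ACSL3 and ACSS2. They were chosen by name, with earlier results of these data known, and are 10 of the 36755 genes in the table. The RNA came from the T-cell leukaemia line Jurkat, of human origin, grown in medium in which histidine was reduced. Histidine is an amino acid that these cells cannot make and take from the medium. Day 3 had groups at 100% (2 libraries, replicates 1 and 3), 50%, 25%, 12.5% and 0% (3 libraries per level). Day 6 had groups at 100%, 50% and 25% (3 libraries per level) and at 12.5% (2 libraries, replicates 1 and 2). All 25 libraries come from the same cell line, with no other treatment given in the labels, and the labels do not say whether replicates were grown separately, so the p-values rest on a spread between libraries that may be technical.

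As background, fatty acid synthesis starts from acetyl-CoA in the cytosol. ACLY makes it by splitting citrate exported from mitochondria, and ACSS2 makes it from acetate. ACACA carboxylates acetyl-CoA to malonyl-CoA, the committed step, and FASN joins these units into palmitate. ELOVL6 lengthens palmitate to stearate, SCD puts the first double bond into saturated chains to give palmitoleate and oleate, and FADS2, ELOVL5 and FADS1 act on polyunsaturated chains as the delta-6 desaturase, the elongase and the delta-5 desaturase. ACSL3 couples long-chain fatty acids to CoA at the endoplasmic reticulum and on lipid droplets. Transcription of these genes is classically driven by SREBP factors, encoded by SREBF1 and SREBF2, which bind sterol elements together with NF-Y and Sp1. Dividing lymphoid cells use the pathway to make membrane lipids.

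Because all 10 genes were lower at 25% and below on day 3, the 250 bases upstream of their RefSeq transcription starts (GRCh38.p14) were read for the boxes of these factors. Of the 10 genes, 9 had an entry, with 14 windows in all. FASN had none. The windows of SCD, ELOVL5, FADS1 and FADS2 are shown because SCD and FADS2 had the largest falls, ELOVL5 one of the smallest, and FADS1 and FADS2 are neighbours on chromosome 11. They run 5′ to 3′ on the strand of the gene, and capitals mark the NF-Y box CCAAT on either strand.
SCD, chr10:100346983-100347232, plus strand: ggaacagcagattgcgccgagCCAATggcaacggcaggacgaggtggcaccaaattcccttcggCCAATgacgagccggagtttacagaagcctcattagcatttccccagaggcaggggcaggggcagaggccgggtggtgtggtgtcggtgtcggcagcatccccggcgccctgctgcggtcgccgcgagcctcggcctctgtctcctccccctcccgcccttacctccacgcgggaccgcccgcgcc
ELOVL5, chr6:53348951-53349200, minus strand: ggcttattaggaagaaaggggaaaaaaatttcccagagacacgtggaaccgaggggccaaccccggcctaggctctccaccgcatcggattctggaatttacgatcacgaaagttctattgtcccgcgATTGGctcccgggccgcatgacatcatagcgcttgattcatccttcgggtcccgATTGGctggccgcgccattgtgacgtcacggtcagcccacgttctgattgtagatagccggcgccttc
FADS1, chr11:61817004-61817253, minus strand: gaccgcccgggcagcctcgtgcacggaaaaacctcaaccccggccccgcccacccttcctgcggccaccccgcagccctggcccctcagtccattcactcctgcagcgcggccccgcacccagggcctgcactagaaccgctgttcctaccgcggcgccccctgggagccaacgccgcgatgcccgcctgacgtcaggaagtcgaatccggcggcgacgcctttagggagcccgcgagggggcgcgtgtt
FADS2, chr11:61815953-61816202, plus strand: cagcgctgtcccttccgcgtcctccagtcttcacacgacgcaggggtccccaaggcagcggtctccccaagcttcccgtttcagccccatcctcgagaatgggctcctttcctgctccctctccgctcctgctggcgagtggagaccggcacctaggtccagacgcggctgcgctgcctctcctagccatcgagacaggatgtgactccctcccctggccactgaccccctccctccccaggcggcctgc
SCD and ELOVL5 each held 2 NF-Y boxes in these windows, and the FADS1 and FADS2 windows held none. Searched on both strands, the NF-Y box CCAAT was in 8 of the 14 windows and in 32.0% of all 35116 promoters. The Sp1 box GGGCGG was in 11 of the 14 and in 42.6% of all. The sterol element TCACNCCAC was in 0 of the 14, against 0.883% of all promoters. The E-box CACGTG was in 1, that of ELOVL5, against 6.34%, and the amino acid response core TGATGNAA in 0, against 3.14%. These are matches of letters in a short window and say nothing of which factor binds there. The windows of HMGCS1, a sterol synthesis gene searched beside them, held no sterol element either. With 0.883% over all promoters, 0 of 14 does not show a lack of the element. A second RefSeq start of FADS2, of ACLY and of ACSS2, and 2 more of ACACA, were counted as windows of their own, and the windows of ACLY and of FADS2 partly overlap.

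In the coordinates of GENCODE 29 (GRCh38, counted from 1) the genes lie on 7 chromosomes. ACLY (41866908 to 41930542, minus strand), ACACA (37084988 to 37406818, minus) and FASN (82078333 to 82098332, minus) are on chromosome 17, SCD (100347124 to 100364834, plus) on 10, ELOVL5 (53267398 to 53349179, minus) on 6 and ELOVL6 (110045846 to 110199199, minus) on 4. FADS1 (61799625 to 61829318, minus) and FADS2 (61792980 to 61867354, plus) are on chromosome 11, ACSL3 (222860934 to 222944639, plus) on 2 and ACSS2 (34872146 to 34927962, plus) on 20. By the outermost bounds of each gene, all 29694 bases of FADS1 lie inside FADS2 on the opposite strand. By the same bounds FEN1, a DNA repair nuclease, shares 4265 bases with FADS2 on the same strand. The RefSeq window of FADS2 shown above ends at 61816202 and that of FADS1 begins at 61817004. Transcripts from those 2 starts overlap only near their 5′ ends. ACSS2 shares 715 bases with GGT7 on the opposite strand. The libraries were strand-specific, but whether the counting used strand is not given in the sources used here, so reads of FADS1 and FADS2 may not be fully separated.

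The deposited values are normalized counts, and library totals of 18.44 to 21.38 mega-counts (median 19.86) are therefore no measure of depth, which is unknown. All 10 T-lineage markers (CD3D, CD3E, LCK, PTPRC and others) were at 10 or more in every library, with summed levels of 57423 to 85854 normalized counts. On day 3 that sum was 59184 to 63302 at 100% and 62748 to 62950 at 50%. It was 66240 to 71144 at 25%, 71001 to 72400 at 12.5% and 82158 to 85854 at 0%, all wholly above 100%. On day 6 it was 57423 to 59673 at 100% and 60971 to 63631 at 50%. It was 58953 to 64857 at 25% and 63870 to 64481 at 12.5%. All 5 adipocyte markers (ADIPOQ, PLIN1, FABP4, LEP and CIDEC) were also at 10 or more in every library, and fat expresses many of the 10 enzymes. Their sum was 1319 to 1634 at 100% on day 3, 1456 to 1998 at 50%, 1461 to 2056 at 25%, 865 to 1314 at 12.5% and 1648 to 1732 at 0%. The day 6 sums were 874 to 1744 at 100%, 881 to 1698 at 50%, 1544 to 2000 at 25% and 1087 to 1659 at 12.5%. On day 3 the range at 12.5% lay wholly below that at 100%, the range at 0% wholly above it, and the other levels overlapped it. On day 6 every level overlapped 100%. The 4 B-cell markers, 1 of them at 10 or more in every library, summed to 195 to 251 at 100% and 50% on day 3, to 549 to 663 at 25% and below, and to 245 to 377 on day 6. The 4 erythroid markers, 3 of them at 10 or more in every library, summed to 278 to 528 at 100% on day 3 and to 3527 to 5029 at 50%, with wide ranges at 12.5% and 0% on day 3 and at 50% and 25% on day 6. The 6 fibroblast and matrix markers, 5 at 10 or more in every library, summed to 1733 to 3078 at 50% on day 6 against 4629 to 10297 at 100%. The 4 myeloid markers summed to at most 341 and the 5 epithelial markers to at most 442. No marker of these lists was at 0 in all libraries, and the part of these and of the adipocyte markers in the results was not tested. HBA2, a haemoglobin gene, measured 1384 to 2177 in libraries whose number in the labels, divided by 8, leaves 3, 4 or 5, and 41.2 to 194 in the others. The labels name no batch of this kind. This remainder, found in earlier work on these data and here called library position, was added to the fit as an alternative. None of the 5 hepatocyte markers (ALB, APOA1, TTR, FGB and SERPINA1) reached 10 in every library, and their sum was 5.47 to 30.8. Replicate 2 of 25% on day 6 held a summed 37884 of heart muscle markers against at most 127 elsewhere and stood apart in principal components, as did replicate 3 of 100% and of 50% on day 6. Counts of genes that passed are given without these 3 libraries where that changed them by over 1.5 times. The 2 libraries at 100% on day 3 also lay apart, replicate 1 at 15.3 and replicate 3 at 57.1 on the second component. Neither is among these 3.

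The enzymes that supply acetyl-CoA were high at 100% and 50% histidine on day 3 and lower in the other groups. ACLY stood at 13486 and 15302 normalized counts at 100% on day 3, and at 14357, 15686 and 15146 at 50%. It stood at 8546, 8729 and 8071 at 25%, at 8643, 9213 and 8341 at 12.5%, and at 9269, 9941 and 10034 at 0%. The ranges at 25% and below lay wholly under those at 50% and 100%, and 0% lay above 12.5%. On day 6, ACLY measured 8741, 9486 and 9004 at 100%, 8660, 8495 and 8353 at 50%, 8152, 8282 and 8211 at 25%, and 7931 and 7943 at 12.5%. The spread over all the day 6 libraries was small, and even 100% on day 6 lay at the level of the restricted groups of day 3. In bulk RNA, fewer cells that express a gene and less RNA per cell cannot be told apart.

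ACSS2, which makes acetyl-CoA from acetate, had far fewer normalized counts. At 100% on day 3 it measured 557 and 618, at 50% 578, 669 and 647, at 25% 341, 315 and 264, at 12.5% 184, 149 and 162, and at 0% 227, 231 and 229. Here 12.5% was the lowest group, at 28.1% ± 3.1 of the 100% mean (SD, n = 3), and 0% lay above it at 39.0% ± 0.3, with no overlap. Its day 6 values were 417, 375 and 341 at 100%, 342, 332 and 383 at 50%, 215, 291 and 302 at 25%, and 174 and 194 at 12.5%. The ranges at 100% and 50% overlapped, and those at 25% and 12.5% lay below them.

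ACACA and FASN carry out the committed step and the chain assembly. ACACA stood at 4665 and 4464 at 100% on day 3, at 3815, 4642 and 4383 at 50%, at 2216, 2098 and 2157 at 25%, at 1726, 1784 and 1446 at 12.5%, and at 1814, 2131 and 2532 at 0%. On day 6 it stood at 3285, 3959 and 3594 at 100%, at 3398, 2466 and 3209 at 50%, at 2448, 1749 and 2155 at 25%, and at 1952 and 1958 at 12.5%. Its 0% group spread widely, and on day 6 its ranges at 100% and 50% overlapped. FASN stood at 13411 and 14950 at 100% on day 3, at 12132, 14150 and 13948 at 50%, at 4558, 4488 and 3695 at 25%, at 3807, 3359 and 3437 at 12.5%, and at 4363, 4618 and 4936 at 0%. On day 6 FASN stood at 6385, 5986 and 6233 at 100%, at 5208, 4797 and 5371 at 50%, at 3378, 4341 and 4417 at 25%, and at 3429 and 3711 at 12.5%. FASN at 100% on day 6 was at 43.7% of its day 3 mean, the lowest such share of the 10 genes.

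SCD, the stearoyl-CoA desaturase, and FADS2 had the deepest falls. SCD measured 59827 and 60760 at 100% on day 3, 56422, 65117 and 64672 at 50%, 16993, 16498 and 13511 at 25%, 10060, 9878 and 8690 at 12.5%, and 10597, 11118 and 12169 at 0%. It was thus at 26.0% ± 3.1 of the 100% mean at 25% histidine, at 15.8% ± 1.2 at 12.5% and at 18.7% ± 1.3 at 0% (SD, n = 3 each). The day 6 libraries held 36933, 41656 and 36033 at 100%, 30472, 28748 and 29909 at 50%, 14474, 15373 and 16257 at 25%, and 9861 and 10301 at 12.5%. None of the 4 day 6 ranges overlapped its neighbour.

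FADS2, the delta-6 desaturase, measured 17602 and 19297 at 100% on day 3, 17558, 19577 and 18815 at 50%, 4300, 3768 and 4179 at 25%, 3344, 3074 and 3012 at 12.5%, and 2160, 2191 and 2063 at 0%. Each level from 25% downward lay below the one before it, and 0% was at 11.6% ± 0.4 of the 100% mean. Day 6 values were 10305, 12255 and 10810 at 100%, 9330, 9293 and 9707 at 50%, 3595, 3890 and 3344 at 25%, and 2602 and 2369 at 12.5%. FADS1, the delta-5 desaturase, measured 7279 and 7362 at 100% on day 3, 6696, 7550 and 7529 at 50%, 3465, 3348 and 3408 at 25%, 2482, 2544 and 2287 at 12.5%, and 1773, 1878 and 1915 at 0%. On day 6 FADS1 gave 5212, 5464 and 5342 at 100%, 4791, 4844 and 4588 at 50%, 2584, 2893 and 2947 at 25%, and 2273 and 2101 at 12.5%. Both desaturases of polyunsaturated chains were lowest at 0%, unlike SCD, FASN, ACACA and ACSS2, which were lowest at 12.5% on day 3.

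ELOVL5 and ELOVL6 are the elongases of polyunsaturated and saturated chains. ELOVL5 measured 13442 and 13651 at 100% on day 3, 13717, 14024 and 13814 at 50%, 9708, 9655 and 9587 at 25%, 9356, 10142 and 9299 at 12.5%, and 8855, 9310 and 9459 at 0%. The day 6 values were 10069, 10453 and 9776 at 100%, 10029, 9796 and 9341 at 50%, 8896, 8588 and 9030 at 25%, and 9514 and 9802 at 12.5%. Its lowest day 6 group was 25%, and 12.5% overlapped 100%. ELOVL6 measured 341 and 338 at 100% on day 3, 338, 329 and 322 at 50%, 231, 233 and 210 at 25%, 217, 279 and 235 at 12.5%, and 169.6, 183 and 179.9 at 0%. For day 6 the values were 239, 244 and 228 at 100%, 197, 208 and 216 at 50%, 178, 216 and 193 at 25%, and 181 and 203 at 12.5%. Below 100% on day 6 its groups overlapped one another.

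ACSL3, the long-chain acyl-CoA synthetase, measured 2399 and 2231 at 100% on day 3, 2326, 2391 and 2348 at 50%, 1663, 1714 and 1574 at 25%, 1292, 1441 and 1229 at 12.5%, and 913, 1001 and 1249 at 0%. At 25% it kept 71.3% ± 3.1 of the 100% mean, as did ELOVL5 with 71.2% ± 0.4, and at 0% it was at 45.5% ± 7.5. Its values on day 6 were 1932, 2024 and 1843 at 100%, 1732, 1867 and 1681 at 50%, 1580, 1908 and 1557 at 25%, and 1169 and 1178 at 12.5%. The high value at 25%, 1908, is that of replicate 2, the library with the heart muscle transcripts.

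**Figure D1:**
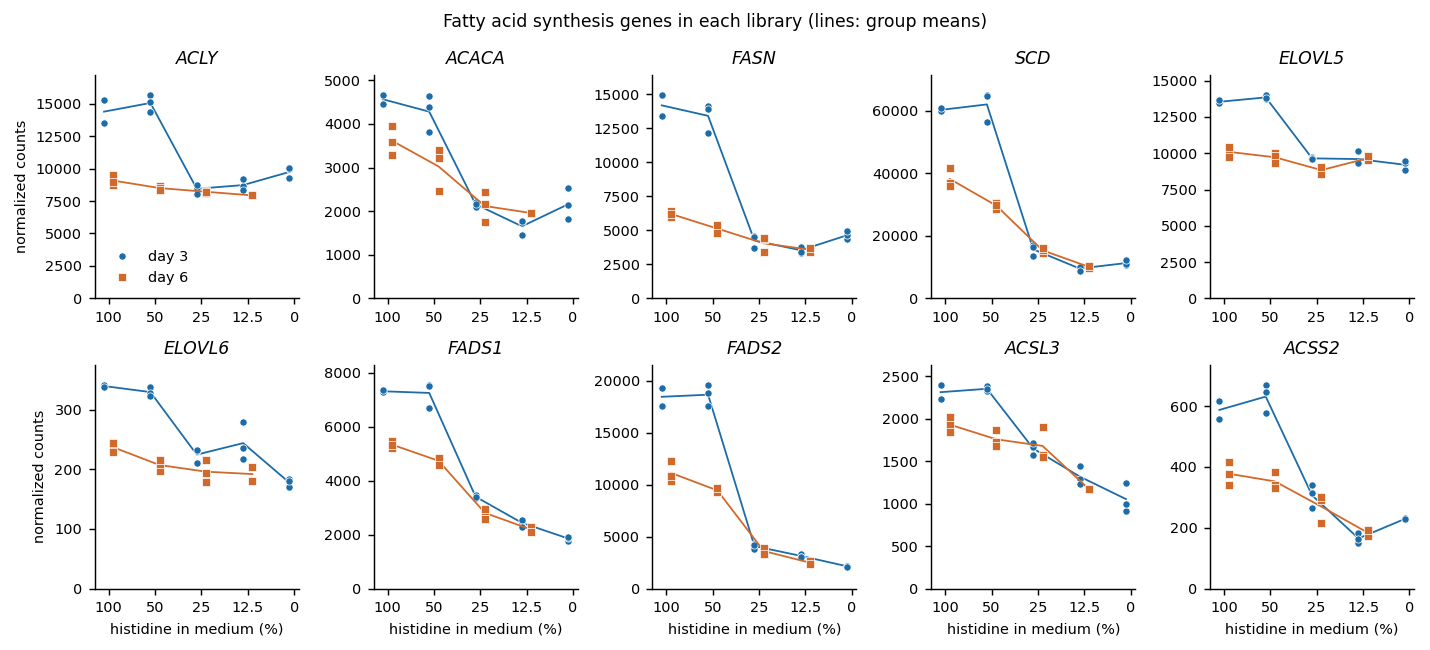
Normalized counts of each of the 10 genes (vertical axis, from 0) against the histidine level in percent (horizontal axis), with 1 point per library, circles for day 3 and squares for day 6, and lines through the group means. On day 3 the libraries at 25% and below lie under those at 50% and 100% in every panel, and on day 6 the 100% libraries lie under those of day 3.

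The order of the group means was much alike among the genes. The highest 2 groups were 100% and 50% on day 3 for all 10, with 50% first for 6 of them and 100% first for 4. The third was 100% on day 6 for 8 genes, followed by 50% on day 6 for the same 8. The exceptions were ACLY, where 0% on day 3 took that place, and ELOVL6, where 12.5% on day 3 did. In ACLY and ELOVL6 each of these overlapped 100% on day 6, so the order is not resolved there. The lowest group was 0% on day 3 for ELOVL6, FADS1, FADS2 and ACSL3, 12.5% on day 3 for ACACA, FASN, SCD and ACSS2, 12.5% on day 6 for ACLY and 25% on day 6 for ELOVL5. FADS1 had the most finely resolved order, with no overlap between neighbours below the first pair.

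None of the 10 genes passed at 50% histidine on day 3 in the test against 100%. Differences are in log2(value + 1), tested with limma over 22994 genes and called at a Benjamini-Hochberg adjusted p under 0.05. The 10 differences lay between -0.10 (ACACA) and 0.10 (ACSS2), 4 of them below 0. Of all genes tested, 0% were called higher and 0% lower, and at an unadjusted p under 0.05 there were 0 of the 10 genes and 1075 of all (4.68%). The 95% confidence interval was -0.15 to 0.22 for SCD, -0.14 to 0.17 for FADS2 and -0.30 to 0.13 for FASN. The groups overlapped in 8 genes, while ELOVL5 lay slightly above 100% and ELOVL6 slightly below, and over all genes 9.85% lay wholly above and 9.54% wholly below. The comparisons with 100% within a day share the 100% libraries.

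At 25% histidine on day 3 all 10 genes fell, and their libraries lay wholly below those at 100%, as did those of 22.3% of all genes. Of all genes tested, 9.72% were called lower and 9.81% higher, and the median difference was -1.01 over the 10 genes and -0.004 over all. FADS2 fell to 22.1% ± 1.5 of the 100% mean (log2 difference -2.18, SE 0.077, limma adjusted p = 2.94e-17) and SCD to 26.0% ± 3.1 (-1.95, SE 0.089, adjusted p = 1.78e-13). FASN fell to 29.9% ± 3.4 (-1.74, SE 0.103, adjusted p = 8.41e-12). FADS1 (-1.10), ACACA (-1.08), ACSS2 (-0.94) and ACLY (-0.77) fell to between 46.5% and 58.7%. The smallest falls were those of ELOVL6 (-0.60, SE 0.136, adjusted p = 0.00197), ELOVL5 (-0.49) and ACSL3 (-0.49). With library position in the fit ELOVL6 did not pass (-0.61, adjusted p = 0.0705). With total-sum scaling 63.3% of all calls were higher, against 50.2% as deposited.

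At 12.5% on day 3 all 10 genes were again lower than at 100%, with no overlap (24.8% of all genes lay wholly below), where 12.0% of all genes were called lower and 14.2% higher. The median was -1.53 over the 10 and -0.04 over all. SCD (-2.66, SE 0.089, limma adjusted p = 4.24e-16), FADS2 (-2.55) and FASN (-2.0) fell most, followed by ACSS2 (-1.83, SE 0.151, adjusted p = 6.24e-10), FADS1 (-1.59) and ACACA (-1.47). ACSL3 (-0.81), ACLY (-0.72), ELOVL5 (-0.50) and ELOVL6 (-0.48, adjusted p = 0.00829) fell less. Where a call turned on 1 library, the log2 difference and the adjusted p without it are given in that order. ELOVL6 failed the test once replicate 1 (-0.48, 0.0578) or 3 (-0.49, 0.0501) of 100% was left out, and also with the compared groups alone in the fit (adjusted p = 0.0617).

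In medium without histidine on day 3 all 10 genes were lower than at 100%, with no overlap (25.9% of all genes), where 16.1% of all genes were called lower and 14.8% higher. The median was -1.25 over the 10 and -0.02 over all. FADS2 fell by 3.11 on the log2 scale (SE 0.077, limma adjusted p = 9.87e-21), the largest difference of any of the 10 genes in any comparison. SCD (-2.42), FADS1 (-1.98, SE 0.068), FASN (-1.61), ACSS2 (-1.35), ACSL3 (-1.15), ACACA (-1.09) and ELOVL6 (-0.93) came next, and ACLY (-0.56) and ELOVL5 (-0.56, adjusted p = 1.03e-09) fell least. No single library or setting tried ended any of these 10 calls.

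**Figure D2:**
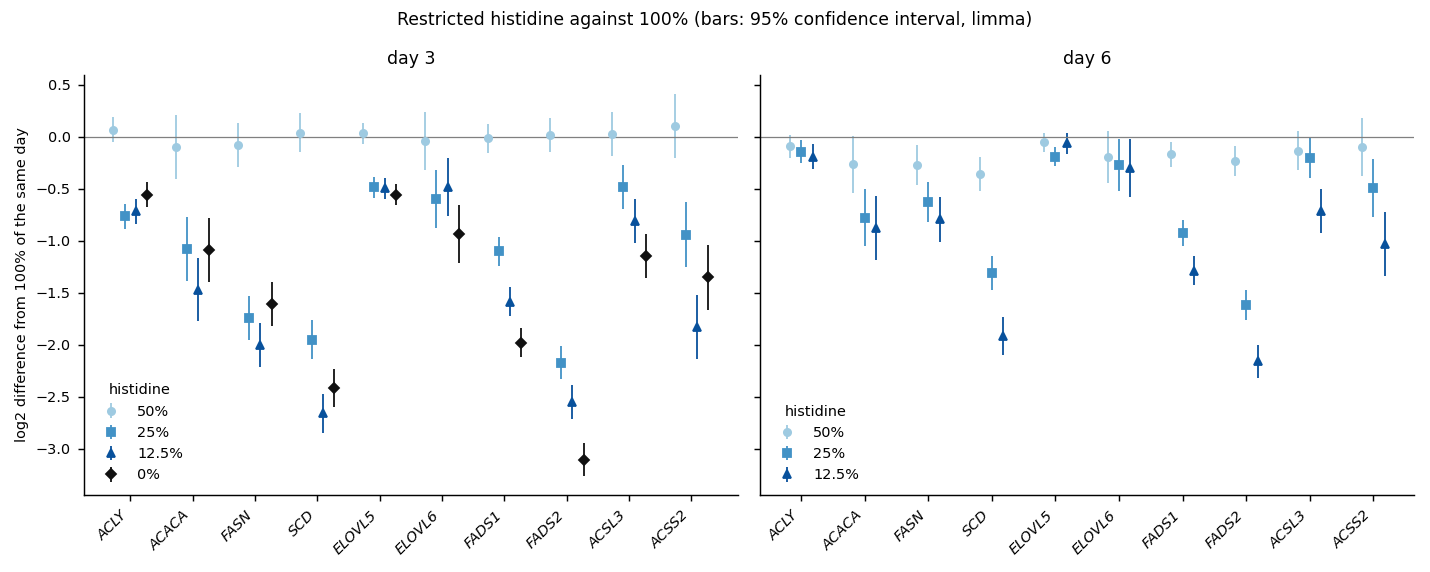
Log2 differences (vertical axis) of each gene (horizontal axis) from 100% histidine of the same day, day 3 on the left and day 6 on the right, with 1 marker per histidine level and bars for the 95% confidence interval from limma. Differences at 50% lie near 0 on day 3, between -0.10 and 0.10, and the lower levels reach -3.11 for FADS2.

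The comparison of neighbouring levels placed the drop on day 3 between 50% and 25%. All 10 genes fell there, with no overlap (19.2% of all genes lay wholly below), where 12.5% of all genes were called lower and 11.4% higher. FADS2 (-2.19, SE 0.069, limma adjusted p = 1.59e-18), SCD (-1.99) and FASN (-1.66) led, then FADS1 (-1.09), ACSS2 (-1.05), ACACA (-0.98), ACLY (-0.83), ELOVL6 (-0.55), ELOVL5 (-0.52) and ACSL3 (-0.51). With library position in the fit, ELOVL6 did not pass (-0.56, adjusted p = 0.0571). With total-sum scaling 64.0% of all calls in this step were higher, against 47.7% as deposited, and the median of all genes moved from 0.01 to 0.11.

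From 25% to 12.5% on day 3 the 3 desaturases, ACSL3 and ACSS2 fell further, and the other genes did not pass. ACSS2 fell by 0.89 (SE 0.135, limma adjusted p = 0.000103), SCD by 0.71 (SE 0.079, adjusted p = 4.77e-06), FADS1 by 0.48, FADS2 by 0.38 and ACSL3 by 0.32 (adjusted p = 0.0268). These 5 of 10 stand against 2.81% of all genes called lower and 5.41% higher. ACACA (-0.39, adjusted p = 0.0747), FASN (-0.26, 0.0882), ACLY (0.05), ELOVL5 (-0.01) and ELOVL6 (0.11) did not pass. ACSL3 did not pass without replicate 1 (-0.32, adjusted p = 0.0749) or 2 (-0.30, 0.108) of 25% or replicate 1 (-0.31, 0.0854) or 3 (-0.27, 0.128) of 12.5%, and FASN passed without replicate 3 of 25% (-0.36, 0.0247). The count of lower genes was 2, SCD and FADS1, with library position in the fit (FADS2 -0.32, adjusted p = 0.0703) and 8 with quantile normalization. Of all calls in this step, 65.8% were higher as deposited, 35.4% with total-sum scaling and 50.0% with quantile normalization.

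From 12.5% to 0% the 10 genes parted. FASN rose by 0.39 (SE 0.092, limma adjusted p = 0.00282), ACSS2 by 0.48 (adjusted p = 0.0112), ACACA by 0.38 (0.0451), SCD by 0.24 (0.0305) and ACLY by 0.16 (0.0297). FADS2 fell by 0.55 (SE 0.069, adjusted p = 7.61e-07), ELOVL6 by 0.45 (0.00787), FADS1 by 0.39 (1.81e-05) and ACSL3 by 0.33 (0.00891), and ELOVL5 did not pass (-0.06). In this step 8.50% of all genes were called higher and 12.5% lower. With library position in the fit none of the 5 rises passed, FASN nearest at 0.28 (adjusted p = 0.0669), and with total-sum scaling FASN and ACSS2 alone passed. FASN passed with each single library left out, and each of the other 4 lost its call without at least 1 of them. Leaving out replicate 3 of 12.5% ended the calls of ACLY (0.13, 0.149), ACACA (0.29, 0.192) and SCD (0.18, 0.164). So did leaving out replicate 2 of 0% (ACLY 0.14, 0.103; ACACA 0.38, 0.0958; SCD 0.25, 0.0599) and replicate 3 of 0% (0.14, 0.116; 0.26, 0.222; 0.19, 0.147). Leaving out replicate 1 of 12.5% ended those of ACLY (0.15, 0.0831) and ACACA (0.41, 0.064), and replicate 2 of 12.5% those of ACSS2 (0.40, 0.0631), ELOVL6 (-0.35, 0.0678) and ACSL3 (-0.27, 0.0655). ACSL3 did not pass without replicate 1 of 0% either (-0.24, 0.0875). FADS1 and FADS2 fell in this step under every setting tried.

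On day 6 at 50% histidine all 10 differences from 100% were below 0, from -0.06 (ELOVL5) to -0.36 (SCD), and none passed the limma test. At an unadjusted p under 0.05 there were 4 of the 10, SCD, FADS2, FASN and FADS1, and 1098 of all genes (4.78%). After adjustment 0.00435% of all genes, a single gene, were called lower and 0% higher. That gene was HMGCS1, the HMG-CoA synthase of sterol synthesis (-0.46, SE 0.070, adjusted p = 0.0129). In 6 of the 10 genes the 50% libraries lay wholly below those at 100%, as they did in 4.34% of all genes (6.15% wholly above). SCD stood at 77.8% ± 2.3 of the 100% mean (n = 3), with a confidence interval of the log2 difference of -0.53 to -0.20 and an adjusted p of 0.254.

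At 25% on day 6, 7 of the 10 genes were lower than at 100%, where 9.24% of all genes were called lower and 11.0% higher. The median was -0.56 over the 10 and -0.02 over all. FADS2 fell to 32.5% ± 2.5 (-1.62, SE 0.069, limma adjusted p = 3.9e-15), SCD to 40.2% ± 2.3 (-1.31) and FADS1 to 52.6% ± 3.7 (-0.93, SE 0.060). ACACA (-0.78, adjusted p = 0.000149), FASN (-0.63, 1.89e-05), ACSS2 (-0.50, 0.0085) and ELOVL5 (-0.19, 0.00201) also fell. ELOVL6 (-0.28, adjusted p = 0.118), ACSL3 (-0.21, 0.123) and ACLY (-0.14, 0.054) did not pass. The call of ACSS2 was lost without replicate 1 of 100% (-0.42, 0.0559) or replicate 1 of 25% (-0.34, 0.0877). ACLY passed without replicate 1 of 100% (-0.17, 0.0478) and with the replicate number as a block (0.0419), and ACSL3 passed without replicate 2 of 25% (-0.30, 0.0271).

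At 12.5% on day 6, 8 of the 10 genes were lower than at 100%, where 11.1% of all genes were called lower and 10.8% higher. The median was -0.84 over the 10 and -0.004 over all. FADS2 fell to 22.3% ± 1.5 (SD, n = 2; -2.16, SE 0.077, limma adjusted p = 7.88e-17) and SCD to 26.4% ± 0.8 (-1.92, SE 0.089), followed by FADS1 (-1.29), ACSS2 (-1.03), ACACA (-0.88), FASN (-0.80), ACSL3 (-0.72) and ACLY (-0.19, adjusted p = 0.0171). ELOVL6 (-0.30, adjusted p = 0.121) and ELOVL5 (-0.06, 0.421; confidence interval -0.17 to 0.04) did not pass. ACLY did not pass without replicate 2 of 100% (-0.16, 0.0813) or without replicate 1 (-0.19, 0.0989) or 2 (-0.19, 0.0998) of 12.5%.

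Between 50% and 25% on day 6, 7 genes fell, where 10.3% of all genes were called lower and 10.6% higher. These were FADS2 (-1.39, SE 0.069, limma adjusted p = 7.99e-14), SCD (-0.95), FADS1 (-0.76), ACACA (-0.51), ACSS2 (-0.40), FASN (-0.35) and ELOVL5 (-0.14). ACLY (-0.05), ACSL3 (-0.07) and ELOVL6 (-0.08) did not pass. The 3 desaturases passed under every setting, and the other 4 rested on single libraries. ACACA did not pass without replicate 2 of 25% (-0.38, 0.0522), nor FASN without replicate 1 of 25% (-0.225, 0.0688). ELOVL5 did not pass without replicate 1 (-0.11, 0.11) or 2 (-0.13, 0.0738) of 50% or replicate 2 of 25% (-0.12, 0.0959), nor ACSS2 without replicate 1 (-0.42, 0.0606) or 3 (-0.34, 0.145) of 50% or replicate 1 of 25% (-0.24, 0.246). Without the 3 libraries that stood apart, 4 genes passed.

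From 25% to 12.5% on day 6, FADS2 (-0.54, SE 0.077, limma adjusted p = 0.000227), SCD (-0.61, SE 0.089, adjusted p = 0.000539), FADS1 (-0.36, 0.00545) and ACSL3 (-0.51, 0.0105) fell, 4 of 10 where 0.670% of all genes were called lower and 0.204% higher. ELOVL5 lay above its 25% libraries without passing (0.13, adjusted p = 0.292), and ACSS2 did not pass (-0.54, 0.0974). FADS1 did not pass without replicate 2 of 12.5% (-0.30, 0.209), nor ACSL3 without replicate 2 of 25% (-0.42, 0.0682) or replicate 1 (-0.51, 0.129) or 2 (-0.52, 0.128) of 12.5%, and ACSS2 passed without replicate 1 of 25% (-0.69, 0.0243). With the compared groups alone in the fit 1 gene passed, SCD. SCD, FADS1 and FADS2 were called lower from 50% to 25% and from 25% to 12.5% on each day, whereas from 12.5% to 0% on day 3 SCD was called higher. With library position, FADS1 did not pass from 25% to 12.5% on day 6 (-0.37, 0.155).

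Day 6 was compared with day 3 at each histidine level. At 100%, 8 of the 10 genes were lower on day 6 than on day 3, where 5.73% of all genes were called lower and 2.93% higher. The libraries of all 10 lay wholly below those of day 3, as did those of 19.5% of all genes. FASN fell by 1.19 (SE 0.103, limma adjusted p = 2.4e-08), FADS2 by 0.73 (SE 0.077), ACLY by 0.66 (SE 0.058, adjusted p = 1.39e-08), SCD by 0.66, ACSS2 by 0.64, ELOVL6 by 0.52, FADS1 by 0.46 and ELOVL5 by 0.42. ACACA (-0.34, adjusted p = 0.177) and ACSL3 (-0.26, 0.124) did not pass. ELOVL6 did not pass without replicate 1 (-0.51, 0.0734) or 3 (-0.525, 0.128) of 100% on day 3 or replicate 3 of 100% on day 6 (-0.49, 0.0531), nor with total-sum scaling (-0.40, 0.0604) or library position (-0.48, 0.201), and ACSS2 not without replicate 3 of 100% on day 3 (-0.56, 0.145). Total-sum scaling moved the median of all genes from 0.02 to 0.13 and the share of calls that were higher from 33.8% to 70.0% (51.7% with quantile normalization), and all 10 differences kept their sign. What else changed in the cultures between the days is not given in the labels and cannot be told apart from time.

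At 50% histidine all 10 genes were lower on day 6, with no overlap (17.3% of all genes lay wholly below), where 9.86% of all genes were called lower and 6.14% higher (65.6% of calls higher with total-sum scaling against 38.4%). FASN (-1.39, SE 0.092, limma adjusted p = 1.11e-10), SCD (-1.06) and FADS2 (-0.98) differed most and ACSL3 (-0.42) least, and ACACA (-0.51, adjusted p = 0.01) did not pass without replicate 2 of 50% on day 6 (-0.37, 0.0641) or with total-sum scaling (-0.40, 0.055). At 25% FADS1 alone was lower on day 6 (-0.28, SE 0.060, adjusted p = 0.00235), where 6.75% of all genes were called lower and 5.04% higher. FADS2 (-0.18, 0.102) passed without replicate 2 of 25% on day 3 (-0.235, 0.0448) or on day 6 (-0.23, 0.0434). At 12.5% FADS2 alone was lower (-0.34, SE 0.077, adjusted p = 0.00348), where 10.2% of all genes were called lower and 3.56% higher (51.7% of calls higher with total-sum scaling against 25.8%), and not without replicate 2 of 12.5% on day 6 (-0.27, 0.105). SCD differed by -0.02 at 25% and by 0.08 at 12.5%, and FASN by -0.07 and 0.02. At 25% the libraries of both days overlapped in 8 of the 10 genes and 2 lay wholly below on day 6 (13.9% of all genes). At 12.5% they overlapped in 4, while 5 lay wholly below and 1 above (23.6% and 19.8% of all genes). At an unadjusted p under 0.05 there were 3 of the 10 at 25%, beside 23.4% of all genes, and 4 at 12.5%, beside 25.9%. Both counts are near those shares.

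The difference between days was tested as the effect of a level on day 6 minus its effect on day 3, so that a positive value means a smaller fall on day 6. At 50% none of the 10 passed in limma, where 0.00435% of all genes were called higher and 0% lower. At an unadjusted p under 0.05 there were 2 of the 10, SCD (-0.40) and FADS2 (-0.25), and 906 of all genes (3.94%). At 25%, 5 genes passed, where 2.71% of all were called higher and 2.01% lower. FASN fell by 1.74 on day 3 and by 0.63 on day 6, a difference of 1.12 (SE 0.138, adjusted p = 1.25e-05). ACLY (0.62), SCD (0.64), FADS2 (0.55) and ELOVL5 (0.30) also passed, and ACACA, ELOVL6, FADS1, ACSL3 and ACSS2 did not. ELOVL5 lost its call at 25% with total-sum scaling (0.20, adjusted p = 0.0858), quantile normalization (0.19, 0.113) and library position (0.29, 0.102). At 12.5%, 6 passed, where 1.28% of all genes were called higher and 2.36% lower: FASN (1.21, SE 0.146, adjusted p = 1.3e-05), SCD (0.74), ACLY (0.53), ELOVL5 (0.43), ACSS2 (0.795, adjusted p = 0.0341) and FADS2 (0.39, 0.0418). These effects contain the difference of the 100% libraries between the days, described above. At 25% the share of calls that were higher was 57.5% as deposited and 32.9% with total-sum scaling.

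The 2 calls nearest the threshold at 12.5% rested on single libraries. FADS2 did not pass without replicate 1 (0.46, 0.0565) or 3 (0.33, 0.177) of 100% on day 3, replicate 2 (0.38, 0.075) or 3 (0.36, 0.103) of 12.5% on day 3, replicate 1 (0.34, 0.115) or 3 (0.375, 0.0893) of 100% on day 6, or replicate 1 (0.33, 0.221) or 2 (0.46, 0.0571) of 12.5% on day 6, each pair being the difference and limma's adjusted p. ACSS2 did not pass without replicate 1 (0.87, 0.0719) or 3 (0.72, 0.125) of 100% on day 3, replicate 2 (0.72, 0.0728) or 3 (0.79, 0.0644) of 12.5% on day 3, replicate 2 (0.79, 0.0607) or 3 (0.725, 0.0868) of 100% on day 6, or replicate 1 (0.87, 0.0651) or 2 (0.72, 0.169) of 12.5% on day 6. With the replicate number as a block, FADS2 did not pass either (0.395, adjusted p = 0.0562), nor with quantile normalization (0.34, 0.0783), library position (0.33, 0.0773) or no trend and robust moderation (0.39, 0.135). ACSS2 did not pass with no filter on low values (0.795, 0.0595), and neither gene passed with the compared groups alone or without the 3 libraries that stood apart. FASN, SCD, ACLY and ELOVL5 passed at 12.5% without any single library.

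The proportions between the genes within a library differed between groups as well. Such ratios depend on transcript length, so only their change between groups is read. The ratio of FADS2 to FADS1 was 2.42 and 2.62 at 100% on day 3 and 2.62, 2.59 and 2.50 at 50%. It was 1.24, 1.13 and 1.23 at 25%, 1.35, 1.21 and 1.32 at 12.5% and 1.22, 1.17 and 1.08 at 0%. In day 6 libraries it was 1.98, 2.24 and 2.02 at 100%, 1.95, 1.92 and 2.12 at 50%, 1.39, 1.35 and 1.14 at 25% and 1.15 and 1.13 at 12.5%. The delta-6 desaturase thus lost a larger share of its level than the delta-5 desaturase, and the ranges at 25% and below lay apart from those above on both days. The ratio of SCD to FASN averaged 4.26 at 100% and 2.43 at 0% on day 3, and 6.18 at 100% and 2.83 at 12.5% on day 6. That of SCD to ACLY averaged 4.20 at 100% and 1.09 at 12.5% on day 3, and 4.21 and 1.27 on day 6, so that unlike SCD to FASN it was alike at 100% on the 2 days. FASN to ACLY averaged 0.986 at 100% on day 3, 0.406 at 12.5% and 0.476 at 0%, and 0.685 at 100% and 0.450 at 12.5% on day 6. The ratio of ELOVL6 to ELOVL5 averaged between 0.0193 (0% on day 3) and 0.0254 (12.5% on day 3) and showed the narrowest relative range of the 5. These ratios were chosen with earlier results known and carry no test.

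**Figure D3:**
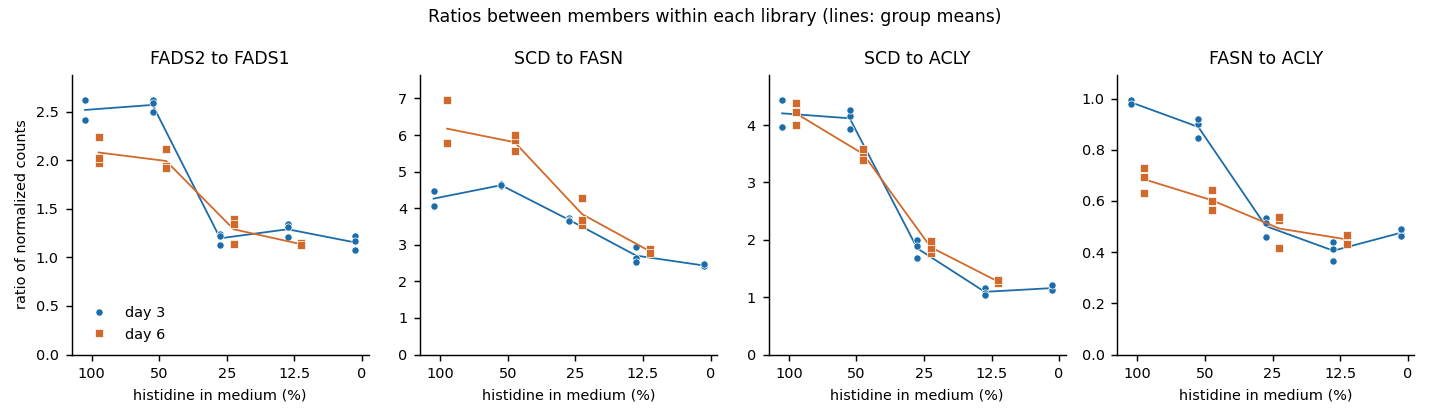
Ratios of normalized counts between 2 of the genes within each library (vertical axis, from 0) against the histidine level in percent (horizontal axis), with 1 point per library, circles for day 3 and squares for day 6, and lines through the group means. FADS2 to FADS1 lies at 1.92 or above at 50% and 100% and at 1.39 or below at the lower levels.

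Across the 9 group means (log2), the 45 pairs among the 10 genes had Pearson correlations of 0.653 (ACLY and ACSL3) to 0.993 (FADS1 and FADS2), with a median of 0.870. These describe 9 points that share libraries and scaling and carry no p. Among 12377 genes with a mean of at least 50, FASN was most like HMGCS1 (0.989), the HMG-CoA synthase of the mevalonate pathway. For ACLY the most alike were DNAJB1 (0.987), a heat shock co-chaperone, and NSDHL (0.987), and for ACACA ABCC1 (0.994). SCD was most like SRPK1 (0.993) and MYB (0.990). FADS1 and FADS2 shared their leading genes, QPRT (0.995 and 0.992) and F2R (0.994 and 0.993), and SREBF2 followed for FADS2 (0.991). ELOVL5 was most like the heat shock genes HSPA6 (0.985) and HSPA1B (0.983), ELOVL6 like PAXIP1 (0.985), ACSL3 like KCTD12 (0.990) and ACSS2 like ZNF354A (0.985).

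The genes of the factors that drive the pathway were measured in the same libraries. SREBF1 stood at 6223 and 8007 normalized counts at 100% on day 3 and fell at 25% (-0.84), 12.5% (-0.88) and 0% (-1.09; SE 0.083 each, limma adjusted p at most 2.6e-08). Its day 6 differences were -0.27 at 25% (adjusted p = 0.00943) and -0.47 at 12.5% (0.000134). SREBF2 stood at 8701 and 8956 at 100% on day 3 and fell at the same levels (-1.14, -1.54 and -1.73), as it did on day 6 (-0.91 and -1.51). INSIG1, which holds SREBP in the endoplasmic reticulum and is itself an SREBP target, fell on day 3 (-2.33, -2.84 and -2.37) and on day 6 (-1.39 and -1.89). None of these 3 passed at 50% on either day. At 100%, INSIG1 (-1.12), SREBF1 (-0.68) and SREBF2 (-0.36) were lower on day 6 than on day 3. Of the 20 regulators and targets of SREBP and LXR on the list, 8 were lower and 4 higher at 25% on day 3, 9 and 4 at 12.5%, and 8 and 4 at 0%. Of all genes on day 3, 9.72% were lower and 9.81% higher at 25%, and 12.0% and 14.2% at 12.5%. At 0% these shares were 16.1% and 14.8%, and the 4 of 20 called higher there lie near the latter. On day 6, 8 of the list were lower (40.0%) and 5 higher (25.0%) at 25% and at 12.5%. Over all genes on day 6, 9.24% were lower and 11.0% higher at 25%, and 11.1% and 10.8% at 12.5%. RNF145, a ubiquitin ligase of this system, rose at all of these levels (0.58 at 25% and 1.40 at 0% on day 3, 1.15 at 12.5% on day 6).

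Sterol synthesis shares its regulators with these genes. Of its 20 genes, 19 were lower and 1 higher at 25%, at 12.5% and at 0% on day 3, with medians of -1.64, -1.79 and -1.73 beside -0.004, -0.04 and -0.02 over all genes. Of all genes, 9.72%, 12.0% and 16.1% were called lower at these day 3 levels, and 9.81%, 14.2% and 14.8% higher. The riser among the 20 sterol genes was PMVK, the phosphomevalonate kinase. On day 6, 1 was lower at 50%, 17 were lower and 1 higher at 25%, and 18 were lower and 0 higher at 12.5%, with a median of -1.08 at 12.5%. These shares lower, 5.0%, 85.0% and 90.0%, stand beside 0.00435%, 9.24% and 11.1% of all genes. At 25%, HMGCS1 fell on day 3 (-3.12) and on day 6 (-1.33), and so did LSS, the lanosterol synthase (-2.26 and -1.51). The sterol reductase gene DHCR7 fell as well (-1.90 at 12.5% on day 6). The median of the 10 fatty acid genes was nearer 0 than that of the sterol list in all of these comparisons.

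Of the other enzymes and carriers of fatty acid synthesis (38 tested of 39 listed), 10 were lower and 0 higher at 25% on day 3, 14 and 1 at 12.5%, and 21 and 1 at 0%, with medians of -0.14, -0.44 and -0.53. On day 6, 14 were lower and 1 higher at 25%, and 17 and 1 at 12.5%. The share called lower was 26.3%, 36.8% and 55.3% on day 3, beside 9.72%, 12.0% and 16.1% of all genes, and 36.8% and 44.7% on day 6, beside 9.24% and 11.1%. TECR, the last enzyme of the elongation cycle, fell at 25% and 12.5% on day 3 (-1.01 and -0.81) and on day 6 (-0.62 and -0.72). FABP5, a fatty acid binding protein, fell at 25% on day 3 (-0.82), and MID1IP1, which promotes polymerization of acetyl-CoA carboxylase, at 12.5% and 0% (-0.46 and -0.72). SLC27A2, a very long-chain acyl-CoA synthetase, fell at 0% on day 3 (-1.51). Day 6 added ELOVL7 at 25% (-1.07) and ACSS1, the mitochondrial counterpart of ACSS2, at 12.5% (-0.74).

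Glycerolipid synthesis and fatty acid oxidation had genes called in both directions. Over all genes, 9.72% were called lower and 9.81% higher at 25% on day 3, 12.0% and 14.2% at 12.5%, 16.1% and 14.8% at 0%, and on day 6 9.24% and 11.0% at 25% and 11.1% and 10.8% at 12.5%. Of 22 glycerolipid and lipid droplet genes, 5 were lower and 2 higher at 25% on day 3, 6 and 4 at 12.5%, and 6 and 5 at 0%. On day 6, 4 were lower and 3 higher at 25%, and 6 and 2 at 12.5%. The shares called higher, 9.1% to 22.7%, lie near those over all genes at several levels, and the shares called lower were 18.2% to 27.3%. GPAT4, which starts glycerolipid synthesis, rose by 0.48 at 12.5% on day 3 and by 0.50 and 0.55 at 25% and 12.5% on day 6, and PLIN3, a lipid droplet coat protein, rose by 0.45 at 25% on day 6. LPCAT1 (-0.74) and CHKA (-0.68) fell at 25% on day 3, LPCAT2 at 12.5% (-1.29) and AGPAT3 at 0% (-0.77), all acting in phospholipid synthesis. Of 23 oxidation genes, 4 were lower and 4 higher at 25% on day 3, 5 and 4 at 12.5%, and 6 and 5 at 0%, and on day 6, 4 and 6 at 25% and 5 and 2 at 12.5%. These are shares of 17.4% to 26.1% lower and 8.7% to 26.1% higher, of which those called higher at 12.5% on both days lie near the shares over all genes. SLC25A20, the mitochondrial carnitine carrier, rose by 0.58 at 25%, 0.63 at 12.5% and 0.92 at 0% on day 3. ACADM rose at 12.5% on day 3 (0.46) and ACADVL (0.55) at 25% on day 6, whereas HADH fell at 0% on day 3 (-0.92) and at 12.5% on day 6 (-1.01), and CPT2 at 12.5% on day 6 (-0.70). The lists were chosen with earlier results of these data known, and LPIN1 is on both the SREBP and the glycerolipid list.

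**Figure D4:**
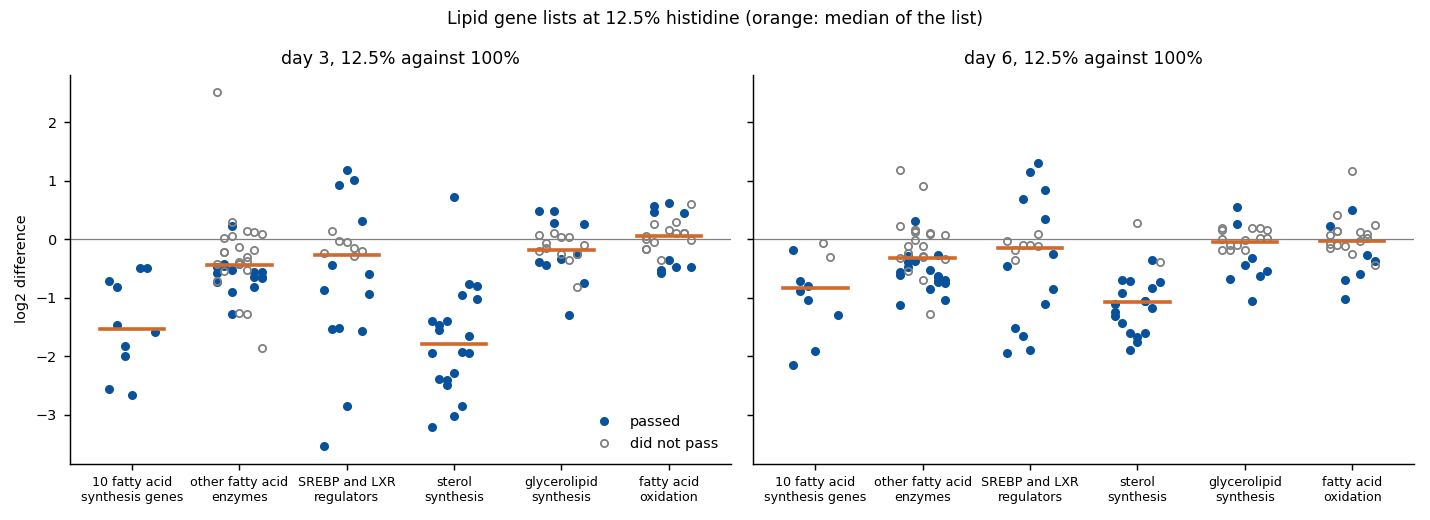
Log2 differences at 12.5% against 100% histidine (vertical axis) of single genes in 6 lists (horizontal axis), day 3 on the left and day 6 on the right, with filled points for genes that passed the test, open points for those that did not, and an orange line at the median of each list. On day 3 the 10 fatty acid genes have a median of -1.53, the sterol genes of -1.79 and the other fatty acid enzymes of -0.44.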

How the data were processed

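RNA of 25 Jurkat libraries in 9 groups was analysed. Per the labels, total RNA was made into strand-specific Illumina libraries. The submitters' processing notes name FastQC 0.11.9, kallisto 0.50.1, DESeq2 1.44.0 and the build GRCh38. The deposited values are a normalized signal, counts scaled per library by the authors. A check for whole reads failed: the share of low values within 0.1 of a whole read ran from 5.9% to 80.5% over the libraries (median 71.7%), which leaves out count models. All columns matched a sample, and 0 of 300 pairs of libraries held identical values.

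Values were taken as log2(value + 1), which understates the change of low genes. Genes with at least 10 in at least 2 libraries (22994 of 36755) were fitted with limma 3.58.1 (R 4.3.3, statmod 1.5.0), a mean per group, an intensity trend and robust moderation, in 19 comparisons, each adjusted by Benjamini-Hochberg and called at 0.05. The script was tested on simulated data. All 10 genes passed the filter and are named in every comparison. From each other list the rule named the 2 genes with the smallest p in each level against 100%, and always SREBF1, SREBF2, INSIG1 and HMGCS1; some genes the rule names are not reported here. RNF145, PMVK and the genes chosen for ratios were followed beyond it after their values were seen. The genes and lists were chosen with earlier results of these data known. Promoter windows come from RefSeq. Alternatives were pseudocounts of 0.5 and 10, other filters and scalings, a replicate block, library position, no moderation by trend, the compared groups alone, and each library left out in turn.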

Additional observations from a re-analysis of the deposited data

Results flagged for a closer look

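For 6 of the 10 genes the effect of restriction differed between day 3 and day 6 (limma on the difference itself, adjusted over 22994 genes). There were 5 at 25% histidine and 6 at 12.5%, with ACSS2 at 12.5% only. Over all genes, 2.71% were called higher and 2.01% lower at 25%, and 1.28% and 2.36% at 12.5%. Positive values mean a smaller fall on day 6. At 25% histidine the difference was 0.62 for ACLY (SE 0.078, adjusted p = 9.16e-06), 1.12 for FASN (SE 0.138, 1.25e-05), 0.64 for SCD (SE 0.119, 0.00182), 0.30 for ELOVL5 (SE 0.066, 0.00673) and 0.55 for FADS2 (SE 0.104, 0.0013). At 12.5% it was 0.53 for ACLY (SE 0.083, 0.00029), 1.21 for FASN (SE 0.146, 1.3e-05), 0.74 for SCD (SE 0.125, 0.00114), 0.43 for ELOVL5 (SE 0.069, 0.000368), 0.39 for FADS2 (SE 0.109, 0.0418) and 0.795 for ACSS2 (SE 0.213, 0.0341). ELOVL5 at 25% did not pass with total-sum scaling (0.200, 0.0858), quantile normalization (0.191, 0.113) or library position in the fit (0.288, 0.102), and FADS2 and ACSS2 at 12.5% each lost their call when any of several single libraries was left out. These 6 genes were also lower on day 6 than on day 3 at 100%. The 2 levels share their 100% libraries.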

How the results depend on the processing

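The counts of the 10 genes called lower against 100% ranged over all alternatives from 9 to 10 at 25% and 12.5% on day 3, stayed at 10 at 0%, and ranged from 6 to 9 at 25% and from 7 to 8 at 12.5% on day 6. At 50% they were 0 on both days. No difference changed its sign where the gene was called. Counts that moved by over 1.5 times were these. Between 25% and 12.5% on day 3 the count of lower genes, 5, was 8 with quantile normalization and 2 with library position in the fit, and 4 to 6 with single libraries left out. Between 12.5% and 0% the count of higher genes, 5, was 3 with no filter, 2 with total-sum scaling, 0 with library position, 2 without trend and robust moderation, 3 with the compared groups alone and 2 to 5 with single libraries left out. The count of lower genes there, 4, was 2 with the compared groups alone and 2 to 4 with single libraries left out. On day 6 the count of lower genes between 50% and 25%, 7, was 4 with the compared groups alone and 4 without the 3 libraries that stood apart, a choice made after seeing the data. Between 25% and 12.5% the count, 4, was 2 with library position, 1 with the compared groups alone and 2 to 5 with single libraries left out. For day 6 against day 3, the count of lower genes at 25%, 1, was 2 with a minimum of 50 in 3 libraries and 1 to 2 with single libraries left out. At 12.5%, quantile normalization gave 1 higher gene (ELOVL5) in place of 0, and the count of lower genes, 1, was 2 without trend and robust moderation and 0 to 1 with single libraries left out. The other 634 counts moved by less. Of the differences of single genes under an alternative, 124 lost their call, 26 gained one, 1761 kept it and 1379 were called in neither. Where a replicate was left out of a pair, the lone library is assumed to vary like the other groups.

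Equal replicate numbers showed no clear pairing in the correlation of deviations from the group means. Of 92 pairs of libraries with the same number, 1 correlated at over 0.1 (median 0.001, maximum 0.192). Of 185 pairs with other numbers, 1 did (maximum 0.106). This measure cannot exclude a pairing, since pairs of libraries with the same library position had a median of only 0.021. With the replicate number as a block, ACLY passed at 25% on day 6 (-0.143, adjusted p = 0.0419), and ACACA between 12.5% and 0% (0.379, 0.0617) and FADS2 in the difference between days at 12.5% (0.395, 0.0562) did not. It changed no other call. Depth is unknown, so no counting interval can be given, and ELOVL6 and ACSS2, with the lowest values, had among the widest standard errors of the 10 genes. What caused the counts to move was not tested.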
